A study of Mus musculus with 2 samples.

Results

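The genes described here are 38 endothelial and angiogenic genes, taken by name from the 34745 genes of a count table of mouse skeletal muscle. They comprise surface and junction genes of the endothelium, its transcription factors, its transport genes, and the ligands and receptors of the VEGF, angiopoietin, apelin and adrenomedullin pathways. Every member was in the table, and every member passed the minimum of 20 counts summed over both libraries that was asked of a tested gene. RNA was sequenced from the gastrocnemius muscle of C57BL/6 mice aged 8 weeks, with 1 scKO library and 1 flox library. The scKO library carries the genotype label CIPC-scko, which the series title lets read as a deletion of Cipc in satellite cells, the stem cells of muscle. The flox library comes from CIPC-flox/flox mice, whose Cipc gene is flanked by loxP sites. The labels do not name the Cre driver, do not say whether animals were pooled, and do not mention the mdx background of the series title. The whole muscle was sequenced, so endothelial RNA is measured within a tissue made mostly of fibres, while the deletion is named for another cell type.

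Skeletal muscle is supplied by a dense capillary bed. Endothelial cells line it, joined by VE-cadherin and claudin 5, and mural cells and muscle fibres around them send growth signals. VEGF-A acts through the receptor KDR to drive endothelial growth, and FLT1 binds the same ligand tightly and limits what reaches KDR. Angiopoietin 1 from perivascular cells activates the receptor TEK and steadies the vessel wall, and angiopoietin 2 opposes it in many settings. ETS and SOX factors switch on the endothelial genes. Caveolin 1 builds the caveolae, flask-shaped membrane pits that are abundant in endothelium and fat cells. CIPC binds CLOCK and inhibits the transcription factor pair CLOCK and BMAL1, which acts through E-box sequences.

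A single member was past 2-fold. Cav1, which encodes caveolin 1, had 127 counts in the scKO library and 570 in the flox library. It was 4.33-fold lower in scKO, with a 95% interval of 3.57 to 5.29. The other 37 members had ratios between 0.5 and 2. Smaller differences beyond counting error were found in both directions: Flt1, Tek and Vegfa were among the higher genes in scKO, and Angpt1, Vegfb, Ets1 and Sox17 were lower. Also compared were 5 pairs of related members, chosen after their values were seen, so the number that differed carries no weight. The ratios of Flt1 to Kdr, of Vegfa to Vegfb and of Ets1 to Erg differed between the libraries beyond counting error. Those of Tek to Tie1 and of Angpt1 to Angpt2 had intervals that included 0 on the log2 scale. With 1 library a genotype there is no replicate check and no test of genotype. The intervals cover counting error only, and every difference below is one between these libraries.

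Cav1 and Flt1 show the largest lower and the largest higher ratio among the members, and Kdr is the partner receptor of Flt1 that did not share its value. The bases before their transcription starts, from RefSeq on GRCm38.p6, are therefore shown. RefSeq gives Cav1 a pair of starts 1305 bases apart. Each line holds the 250 bases before a start, read 5′ to 3′ on the strand of the gene. Capitals mark ACGTG, the core of the hypoxia element, and GGAAG, the core bound by ETS factors, on either strand.
Cav1, upstream start, plus strand of chr6:17306085-17306334: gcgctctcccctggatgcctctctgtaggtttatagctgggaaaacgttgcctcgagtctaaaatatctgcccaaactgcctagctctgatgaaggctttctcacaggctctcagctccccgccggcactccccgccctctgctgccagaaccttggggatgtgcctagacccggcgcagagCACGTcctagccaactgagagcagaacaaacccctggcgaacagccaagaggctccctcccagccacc
Cav1, downstream start, plus strand of chr6:17307390-17307639: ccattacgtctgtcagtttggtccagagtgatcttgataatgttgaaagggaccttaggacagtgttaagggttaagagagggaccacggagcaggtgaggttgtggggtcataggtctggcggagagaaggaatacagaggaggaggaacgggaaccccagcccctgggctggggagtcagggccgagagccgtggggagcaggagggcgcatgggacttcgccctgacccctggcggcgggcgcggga
Flt1, minus strand of chr5:147726012-147726261: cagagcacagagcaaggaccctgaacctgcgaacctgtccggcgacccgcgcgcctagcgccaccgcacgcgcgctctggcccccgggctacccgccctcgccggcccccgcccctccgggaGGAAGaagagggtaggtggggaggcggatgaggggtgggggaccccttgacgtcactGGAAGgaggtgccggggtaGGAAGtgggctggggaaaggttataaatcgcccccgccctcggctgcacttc
Kdr, minus strand of chr5:75978456-75978705: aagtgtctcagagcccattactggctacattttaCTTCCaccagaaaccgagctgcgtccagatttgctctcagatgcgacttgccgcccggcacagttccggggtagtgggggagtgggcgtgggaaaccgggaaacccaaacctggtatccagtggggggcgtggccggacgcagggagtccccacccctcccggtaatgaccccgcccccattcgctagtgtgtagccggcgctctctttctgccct
The upstream Cav1 window holds 1 ACGTG, in the reverse orientation CACGT, and the downstream Cav1 window holds none. Neither Cav1 stretch holds GGAAG. The Flt1 stretch holds 3 copies of GGAAG, and the Kdr stretch holds 1, as its complement CTTCC.

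Motifs were counted on both strands over windows that run from 250 bases before to 50 bases after the start, of which 32851 were available, 27 of them for 20 members. The E-box CACGTG was in none of the 27 windows, and 7.15% of all windows held it. ACGTG, which every CACGTG contains, lay in a window of 2 of the 20 members, Cav1 and Vegfa, against 19.6% of all windows. GGAAG was in a window of 15 of the 20 members, Cav1, Flt1 and Kdr among them, and in 71.4% of all windows, so its presence is common to most promoters. ACAAT, a SOX core, was in a window of 6 of the 20 members, Cav1 among them, against 31.0% of all windows. Members with several windows count once where any of these holds the motif, which raises their share over that of single windows. A match describes letters in a window and does not show binding.

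Read depth was similar in both libraries, with 13842100 counts in scKO and 14727219 in flox. Cipc, the targeted gene, had 111 counts in scKO and 658 in flox, and was 5.72-fold lower in scKO. That value is of whole muscle, in which satellite cells are a minor cell type. Which cells lost the transcript was not tested. Mitochondrially encoded genes took 25.7% of the counts in each library. A ratio of 2 or more with an interval excluding 1 was found for 189 of 12662 tested genes (1.49%). A ratio of 0.5 or less was found likewise for 242 (1.91%), so 3.40% passed in either direction. Cav1 makes 1 of 38 members, which is close to that background in number. Its own ratio was rarer: 13 of 9797 genes with at least 100 summed counts (0.133%) were at or below it. A counting interval that excluded a ratio of 1 was found for 12.8% of tested genes in the higher direction and for 12.3% in the lower direction. Among the members these were 7 of 38 higher and 5 of 38 lower, which is 31.6% in all against 25.1% of the tested genes. Counting intervals narrow with depth, so the shares were also set side by side at like depth. Of the 8 members with 1000 to 10000 summed counts, 7 had intervals that excluded 1, against 39.6% of tested genes of that depth, and 6 of these were higher, against 22.2%. Of the 27 members with 100 to 1000 summed counts it was 5, which is 18.5%, against 21.8%. None of the 3 members below 100 counts had one, against 15.1%. The median log2 ratio of the members was 0.056, against 0.0021 over all tested genes.

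Levels of the members spanned a wide range. They are compared here by the deposited FPKM, which divides by gene length. The water channel Aqp1 stood highest, at 126.8 FPKM in scKO and 115.1 in flox. The fatty acid carrier Fabp4 had 35.3 FPKM in scKO and 29.2 in flox, and the ligand Vegfb had 28.7 FPKM in scKO and 32.7 in flox. Rgcc, a cell cycle regulator enriched in capillary endothelium, had 19.99 FPKM in scKO and 18.8 in flox, and the VE-cadherin gene Cdh5 had 18.5 in scKO and 16.4 in flox. These and Vegfa were the 6 members above 10 FPKM in both libraries. At the other end Apln, the apelin ligand, stood lowest with 0.53 FPKM in scKO and 0.47 in flox, and Flt4, the lymphatic VEGF receptor, had 0.55 in scKO and 0.60 in flox. In this order Cav1 took place 29 in scKO and place 12 in flox. No other member's place differed by more than 6.

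**Figure D1:**
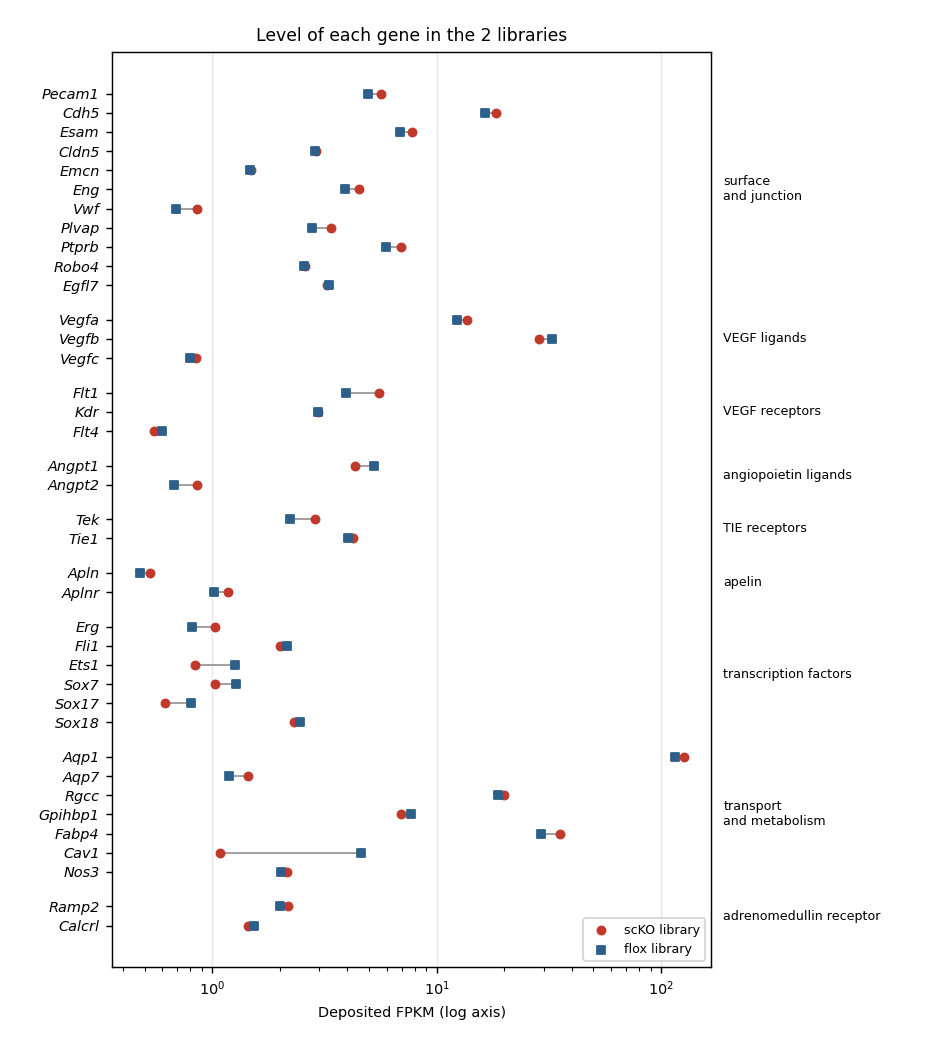
Deposited FPKM of each of the 38 genes (log axis) in the scKO library (circles) and the flox library (squares), grouped by role. Most pairs of symbols lie close together, from 0.53 to 126.8 FPKM in scKO, and Cav1 is the exception at 1.09 FPKM in scKO and 4.59 in flox.

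Among the surface and junction genes, 2 had intervals above 0. Cdh5 had 1018 counts in scKO and 963 in flox, and its log2 ratio was 0.13 (0.0027 to 0.26). Ptprb, the phosphatase VE-PTP that acts on TEK and VE-cadherin, had 1143 counts in scKO and 1047 in flox (0.18, 0.055 to 0.30). These 2 of 11 surface genes stand against 12.8% of all tested genes with an interval above 0, and no surface gene had one below. Both lie at 1000 to 10000 summed counts, where 22.2% of tested genes had an interval above 0. With DESeq2 size factors the interval of Cdh5 included 0, which leaves 1 of 11. Pecam1, which encodes the adhesion molecule CD31, had 700 counts in scKO and 651 in flox, with an interval that just reached 0 (0.16, −0.00018 to 0.31). Eng, the TGF-β co-receptor endoglin, had 458 counts in scKO and 421 in flox. Vwf, the clotting factor carrier, had 235 counts in scKO and 202 in flox. Plvap, the diaphragm protein of fenestrae and caveolae, had 94 counts in scKO and 83 in flox, and the adhesion molecule gene Esam had 357 in scKO and 337 in flox. The intervals of Eng, Vwf, Plvap and Esam included 0.

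The other surface genes had nearly equal values. The tight junction gene Cldn5 had 57 counts in scKO and 60 in flox, and the sialomucin gene Emcn had 135 in scKO and 141 in flox. The guidance receptor gene Robo4 had 256 counts in scKO and 268 in flox. Egfl7, a secreted endothelial matrix protein, had 347 counts in scKO and 375 in flox. Its exons also hold Mir126a. Their log2 ratios lay between −0.061 and −0.011. With total-count scaling Cldn5, Emcn and Robo4 stood above 0. Summed over the 11 genes, the surface set took 346.8 CPM (counts scaled to the library total) in scKO and 308.8 CPM in flox, and its median log2 ratio was 0.13. The 6 markers that define endothelium here (Pecam1, Cdh5, Kdr, Tie1, Cldn5 and Emcn) were all detected, with 192.2 CPM in scKO and 176.1 CPM in flox. Their median log2 ratio was 0.018, with 3 of the 6 above 0. The interval of 1, Cdh5, lay above 0, against 12.8% of all tested genes, and of none with DESeq2 size factors. In bulk RNA the number of endothelial cells and the RNA per cell cannot be told apart.

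**Figure D2:**
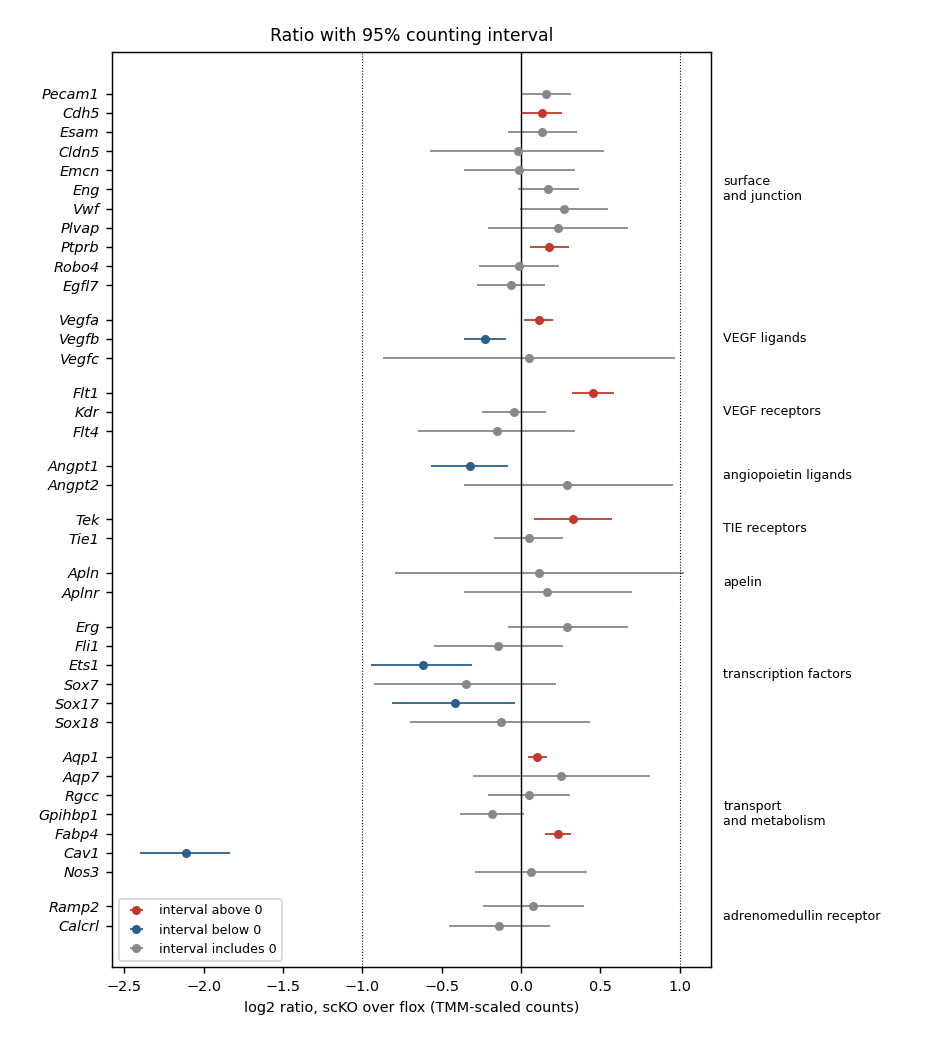
Log2 ratio of scKO over flox for the 38 genes, with 95% counting intervals; dotted lines mark 2-fold. Red intervals lie above 0 (7 genes), blue ones below 0 (5 genes), and Cav1 at −2.11 is the gene past a dotted line.

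The VEGF receptors did not share a value. Flt1 had 1102 counts in scKO and 834 in flox, a ratio of 1.37 (1.25 to 1.50). Kdr, the main signalling receptor, had 394 counts in scKO and 421 in flox, a ratio of 0.97 (0.84 to 1.12). Flt4 had 66 counts in scKO and 76 in flox, and its interval was wide (0.64 to 1.27). Per length, Flt1 stood at 1.87 times the level of Kdr in scKO and at 1.33 times in flox. The change in the ratio of Flt1 to Kdr, which needs no scaling of the libraries, was 0.50 on the log2 scale (0.26 to 0.74). Flt1 lies on chromosome 5 from 147561604 to 147726011 and Kdr on the same chromosome from 75932827 to 75978458, both on the minus strand of GRCm38. The counts are of whole genes, so the soluble form of FLT1 could not be separated from the membrane form.

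The ligands also differed in direction. Vegfa, the main angiogenic ligand, had 1956 counts in scKO and 1877 in flox (log2 ratio 0.11, 0.019 to 0.20). Vegfb, which binds FLT1 and not KDR, had 856 counts in scKO and 1037 in flox (−0.23, −0.36 to −0.094). Vegfb had the higher level per length, and Vegfa reached 0.47 times that level in scKO and 0.38 times in flox. The change in the ratio of Vegfa to Vegfb was 0.34 on the log2 scale (0.17 to 0.50). Vegfc, the ligand of FLT4, had 22 counts in each library. Muscle fibres are a known source of Vegfa and Vegfb. The 6 fibre markers had a median log2 ratio of −0.072, with 101936 CPM in scKO and 105862 CPM in flox in sum, and their part in these values was not tested.

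Among the angiopoietin genes the ligand and receptor that work together differed in opposite directions. Tek had 299 counts in scKO and 247 in flox, a ratio of 1.25 (1.06 to 1.49). Its partner Tie1, a receptor with no ligand of its own firmly assigned, had 356 counts in scKO and 357 in flox. Angpt1, the activating ligand, had 255 counts in scKO and 331 in flox, a ratio of 0.80 (0.68 to 0.94). Angpt2 had 45 counts in scKO and 38 in flox, with an interval of 0.78 to 1.94. The ratio of Angpt1 to Angpt2 was 5.08 in scKO and 7.80 in flox per length, but the interval of that change included 0 on the log2 scale (−1.33 to 0.083). So did the change of Tek relative to Tie1 (0.28, −0.052 to 0.61). An antisense gene shares 14.2% of the exon bases of Angpt1, and it had 6 counts in scKO and 5 in flox.

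Angpt1 comes from mural and mesenchymal cells rather than endothelium. The 12 mural markers had a median log2 ratio of 0.10, with 3 intervals above 0 and 2 below, against 12.8% and 12.3% of all tested genes. They summed to 3358 CPM in scKO and 3186 CPM in flox. Des alone gave 2582 CPM in scKO and 2454 CPM in flox (log2 ratio 0.035), so the sum rests mostly on that gene. Tagln, a smooth muscle actin-binding protein, had a log2 ratio of 0.26, the Notch receptor gene Notch3 0.20, and Cspg4, a pericyte proteoglycan, −0.24. The intervals of Notch3 and Cspg4 included 0. Those above 0 were Tagln, Abcc9 and Des. Abcc9 lies at 1000 to 10000 summed counts, where 22.2% of tested genes were above, and Des at 10000 and over, where 33.6% were. Those below were Higd1b, with 15 counts in scKO and 30 in flox, and Cnn1, with 4 in scKO and 18 in flox, which was past 2-fold lower. At their depth of 20 to 100 summed counts, 8.62% of tested genes were below and 6.07% were past 2-fold lower. The 6 markers of fibro-adipogenic progenitors had a median of −0.25, with 4 intervals below 0 and none above, against 12.3% and 12.8% of all tested genes. Of those below, Dcn and Col1a1 lie at 1000 to 10000 summed counts, where 17.5% of tested genes were below. The 6 markers summed to 357.0 CPM in scKO and 391.7 CPM in flox. Col1a1 stood at −0.45, Pdgfra at −0.45 and Clec3b at −0.38. The part of these cells in the value of Angpt1 was not tested.

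The apelin and adrenomedullin genes showed no difference beyond counting error. Apln had 23 counts in scKO and 22 in flox, and its receptor gene Aplnr had 65 in scKO and 60 in flox. Calcrl, the receptor of adrenomedullin, had 158 counts in scKO and 180 in flox. Ramp2, the accessory protein that gives CALCRL its specificity for adrenomedullin, had 169 counts in scKO and 166 in flox. Their intervals reached from 0.58 to 2.04 for Apln, from 0.78 to 1.62 for Aplnr, from 0.73 to 1.13 for Calcrl and from 0.85 to 1.31 for Ramp2. Ramp2 shares 33.4% of its exon bases with Vps25 on the same strand, and how reads of both were divided is not given in the sources used here.

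Transcription factors were the role group with the lowest median log2 ratio, −0.24 over 6 genes. Ets1, an ETS factor of endothelium and lymphocytes, had 136 counts in scKO and 217 in flox, a ratio of 0.65 (0.52 to 0.81). Erg, the ETS factor that maintains endothelial identity, had 130 counts in scKO and 110 in flox, a ratio of 1.22 (0.94 to 1.59). Per length the level of Ets1 was 0.82 times that of Erg in scKO and 1.54 times in flox, so their order turned round. The change in that ratio was −0.91 on the log2 scale (−1.41 to −0.42). Fli1, the third ETS gene, had 97 counts in scKO and 111 in flox, with an interval that included 0.

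The SOXF factors specify arterial and lymphatic endothelium and work partly in each other's place. Sox17 had 98 counts in scKO and 136 in flox (log2 ratio −0.42, −0.81 to −0.036). Sox7 had 47 counts in scKO and 62 in flox, and Sox18 had 52 in scKO and 59 in flox, both with intervals that included 0. All 3 had fewer counts in scKO, and the interval of 1, Sox17, excluded 0. With total-count scaling that interval included 0. Ets1 and Fli1 are also leukocyte genes. The pan-leukocyte marker Ptprc had 34 counts in scKO and 39 in flox, and the T cell gene Cd3e had 0 in each, which allows up to 0.217 CPM in scKO and 0.204 CPM in flox. A gene on the opposite strand, without a count in either library, shares 16.8% of the exon bases of Sox17.

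Transport and metabolic genes included the members with the most counts. Aqp1 had 4610 counts in scKO and 4452 in flox (log2 ratio 0.10, 0.042 to 0.16). Fabp4 had 2507 counts in scKO and 2208 in flox (0.23, 0.15 to 0.32). Gpihbp1, which carries lipoprotein lipase to the capillary lumen, had 386 counts in scKO and 454 in flox, with an interval that reached past 0 (−0.18, −0.38 to 0.016). Nos3, the endothelial nitric oxide synthase, had 136 counts in scKO and 135 in flox, and Rgcc had 254 in each library. An antisense gene with no counts covers 25.2% of the exon bases of Nos3. Aqp7, a glycerol channel of fat cells and muscle capillaries, had 61 counts in scKO and 53 in flox. Fabp4, Aqp7 and Cav1 are also fat cell genes. The 8 adipocyte markers summed to 57.2 CPM in scKO and 51.3 CPM in flox, and all 8 intervals included 0. Of all tested genes 25.1% had an interval that excluded it. At the depths of these markers the share was 15.1% below 100 summed counts and 21.8% at 100 to 1000. Adipoq had 55 counts in scKO and 52 in flox, Lipe had 326 in scKO and 308 in flox, and Cfd had 253 in scKO and 251 in flox.

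Cav1 stood apart from every other transport gene. It lies on the plus strand of chromosome 6 from 17306335 to 17341452 in GRCm38 (ENSMUSG00000007655). Its level was 1.09 FPKM in scKO and 4.59 in flox, and its log2 ratio was −2.11 (−2.40 to −1.84). Set against the summed 11 surface genes it stood at −2.24 (−2.54 to −1.96), so the difference was as large relative to the endothelial surface genes as over the whole library. Gm15581, an antisense gene that spans Cav1, had no count in either library and shares no exon base with it.

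**Figure D3:**
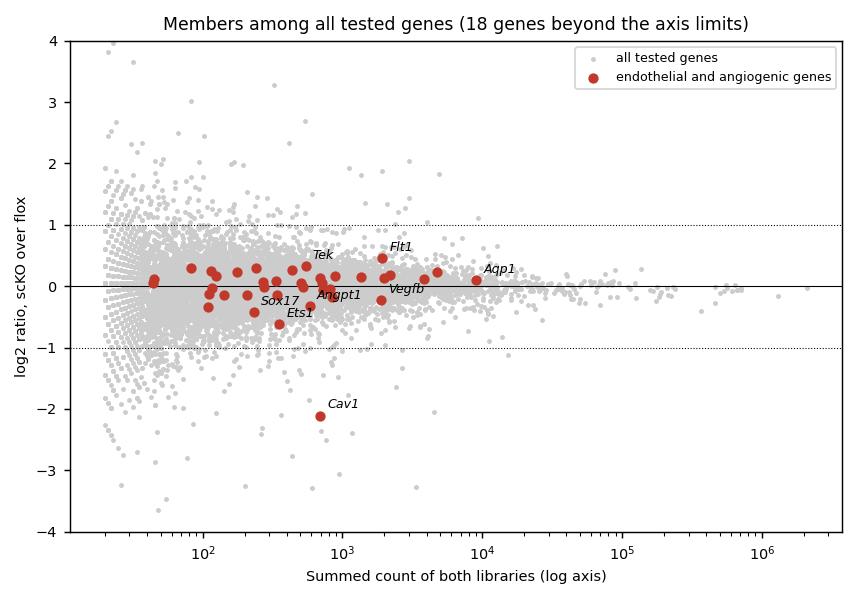
Log2 ratio of scKO over flox against the summed count of both libraries (log axis) for all tested genes (grey) and the 38 members (red), with dotted lines at 2-fold. Apart from Cav1 at −2.11, the members lie between −0.62 and 0.45; few grey points of like depth lie as low as Cav1 (13 of 9797 genes with at least 100 summed counts).

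Other genes of the caveola did not share the value of Cav1. Their values are of whole muscle, and which cells gave them was not tested. A list of 11 other genes of the caveola coat and neck was chosen after the value of Cav1 was seen and is given as values only. Cav2, whose protein needs caveolin 1 to reach the membrane, had 313 counts in scKO and 351 in flox (log2 ratio −0.11, −0.34 to 0.11). The muscle caveolin gene Cav3 had 602 counts in scKO and 651 in flox (−0.062, −0.22 to 0.10). Cavin1, the coat protein that all caveolae need, had 1384 counts in scKO and 1490 in flox (−0.055, −0.16 to 0.051). Over the 11 genes the log2 ratios ran from −0.30 for Ehd4, a membrane-remodelling ATPase, to 0.28 for Pacsin2, a curvature protein of the caveola neck. The intervals of 8 included 0. Besides Pacsin2, Cavin2 was above 0 with 778 counts in scKO and 714 in flox, and Ehd4 was below with 423 counts in scKO and 539 in flox.

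Genes beside Cav1 were mixed. Within 500 kb, a window likewise chosen after its value was seen, 6 other genes were tested. Of these, 3 had intervals below 0, against 12.3% of all tested genes and 48.5% at 10000 summed counts and over, the depth of Capza2. Cav2, which begins at −25.2 kb from the Cav1 start, was not among them. Met, the HGF receptor gene that begins 157.5 kb beyond it, had 174 counts in scKO and 346 in flox (log2 ratio −0.94, −1.21 to −0.67). Capza2, an actin-capping subunit 329.9 kb beyond, had 4551 counts in scKO and 5512 in flox (−0.23, −0.28 to −0.17). The long noncoding RNA D830026I12Rik, which begins at −108.6 kb, had 9 counts in scKO and 25 in flox (−1.37, −2.71 to −0.28). Tes had 16 counts in scKO and 20 in flox, and St7 had 111 in scKO and 89 in flox, both with intervals that included 0.

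**Figure D4:**
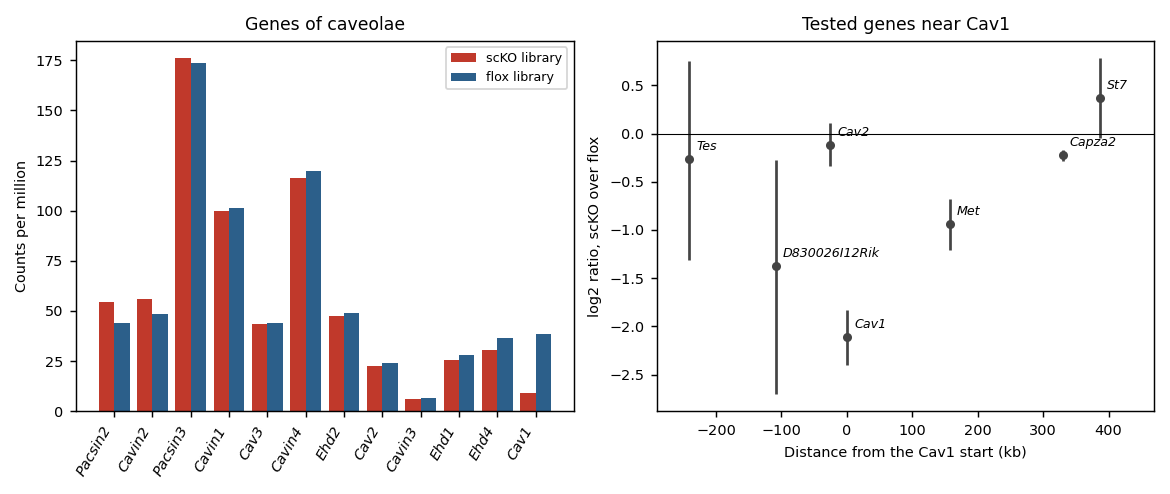
Left, CPM of 12 caveola genes in the scKO library (red) and the flox library (blue); right, log2 ratio of scKO over flox with 95% counting intervals for tested genes against the distance of their start from that of Cav1 in kb. Cav1 has 9.17 CPM in scKO and 38.7 CPM in flox, and the log2 ratios of the other 11 genes run from −0.30 (Ehd4) to 0.28 (Pacsin2). Of the neighbours with intervals below 0, Met stands at −0.94 and Capza2 at −0.23.

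Setting each member against the summed surface genes shows which ones differed from that sum, without any scaling of the libraries. For Angpt1, Vegfa and Vegfb, which have sources outside endothelium, the ratio also compares cell types. The surface sum was itself higher in scKO, at 346.8 CPM against 308.8 CPM in flox, which lowers every value given here. The share of all tested genes beyond this comparison was not computed, so the counts of members have no background beside them. Of the 27 members outside the surface group, 19 had intervals that included 0. Flt1 stayed higher, at 0.32 (0.18 to 0.47), and Fabp4 marginally so, at 0.11 (0.0034 to 0.21). Vegfa and Aqp1, which were higher over the whole library, were level with the surface genes at −0.018 (−0.13 to 0.091) and −0.027 (−0.11 to 0.057). Tek stood at 0.20 (−0.057 to 0.45). Besides Cav1, the members below were Ets1 at −0.75, Sox17 at −0.55, Angpt1 at −0.45, Vegfb at −0.35 and Gpihbp1 at −0.31. Over the whole library the interval of Gpihbp1 included 0.

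**Figure D5:**
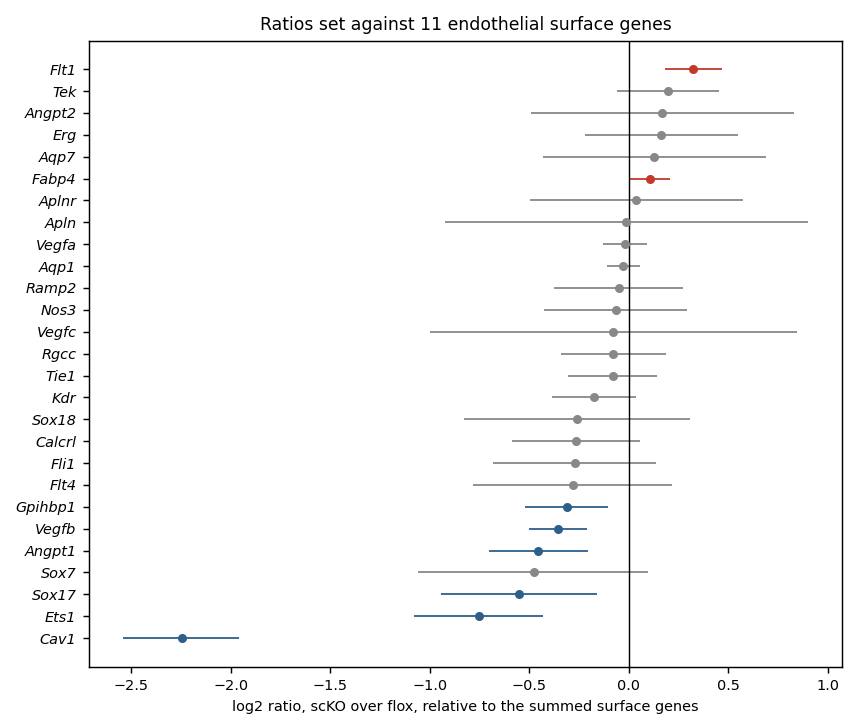
Log2 ratio of scKO over flox of the 27 members outside the surface group, relative to the summed counts of the 11 surface and junction genes, with exact 95% counting intervals. Red intervals lie above 0 (Flt1 and Fabp4) and blue ones below 0 (6 genes, with Cav1 at −2.24). The share of all tested genes was not computed for this comparison.

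Other genes of these pathways, 68 in number, came from lists of related genes chosen with earlier results of these data known. Of 30 tested genes of VEGF, angiopoietin and Notch signalling and hypoxia, 4 had intervals above 0 and 2 below, against 12.8% and 12.3% of all tested genes, and the median log2 ratio was 0.061. The 4 above (S1pr1, Egln3, Epas1 and Egln1) lay at 1000 to 10000 summed counts, where that share was 22.2%. Vegfd, a ligand of FLT4, had 92 counts in scKO and 70 in flox (0.44, −0.019 to 0.92). Acvrl1, the endothelial BMP9 receptor ALK1, had 76 counts in scKO and 109 in flox (−0.47, −0.91 to −0.033), and the inhibitor Thbs1 had 90 in scKO and 117 in flox (−0.33, −0.74 to 0.081). None was past 2-fold. Of 31 tested capillary, arterial and venous genes, 10 had intervals above 0 and 5 below, against the same 12.8% and 12.3%, with a median of 0.097 and none past 2-fold. Of those above, Lpl, Cd36, Podxl, Ly6c1, Jam2 and Tjp1 had 1000 or more summed counts, and of those below, Cd34 and Mef2c. At 1000 to 10000 summed counts 22.2% of tested genes were above and 17.5% below. At 10000 and over it was 33.6% and 48.5%. The factor gene Gata2 had 121 counts in scKO and 74 in flox (0.76, 0.33 to 1.20). Tcf15, a factor of muscle capillaries, had 55 counts in scKO and 90 in flox (−0.65, −1.17 to −0.16). Mef2c, which muscle fibres also express, had 4909 counts in scKO and 9009 in flox (−0.82, −0.88 to −0.77).

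Transcripts of other cells in and around vessels did not follow the surface genes in one direction. The 5 erythroid genes, which report red cells held in the vessels, all had intervals below 0, against 12.3% of all tested genes. They had 113.5 CPM in scKO and 143.9 CPM in flox in sum. Hba-a1 had a log2 ratio of −0.48, Hbb-bt −0.42 and Alas2 −0.59. The globin genes are near-identical copies, and reads that match several could be divided among them. Of the lymphatic markers 4 of 6 were tested. Lyve1 had 94 counts in scKO and 62 in flox, Prox1 had 85 in scKO and 110 in flox, Pdpn had 28 in scKO and 30 in flox, and Reln had 30 in scKO and 25 in flox. Ccl21a had no count in either library. The 8 macrophage markers had a median of 0.050, with Cd163 at 0.57, Csf1r at 0.35 and C1qc at −0.58. The satellite cell marker Pax7 had 39 counts in scKO and 69 in flox, Vcam1 had 57 in scKO and 47 in flox, and Cdh15 had 230 in scKO and 211 in flox. Among the fibre myosins, Myh1 stood at 0.27 and Myh4 at −0.16. The part of any of these cells in the values of the 38 genes was not tested.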

How the data were processed

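The authors deposited whole-number counts per gene for both libraries, and FPKM values per library, per the file headers. Per the submitters' processing notes, CASAVA, HISAT2 2.0.4 and StringTie 1.3.0 were used on build GRCm38. Their roles, the annotation release, the strand setting and the handling of multiply mapped reads are not given in the sources used here. The deposited FPKM followed from the counts and total counts to within 0.00414% over 11214 genes, so both files hold the same measurement.

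Library sizes were scaled with TMM (edgeR 4.0.16, R 4.3.3). The log2 ratio of scKO over flox used a prior count of 0.5. The 95% interval of each ratio was the exact conditional binomial (Clopper-Pearson) one, and ratios between genes used the exact conditional odds ratio. With 1 library a genotype the spread between animals is unknown, and p-values were not computed. A gene was tested at a summed count of at least 20. The scripts were tested on simulated data. CPM were computed on total counts. Intervals, and the limit of 3 counts set by a count of 0, cover counting error only, since PCR copies are not independent molecules. Gene names came from a table that matched 34267 of 34745 identifiers, and positions and exons from GENCODE M21 on the same build. Computation used Python 3.11.15, numpy 2.4.6, scipy 1.17.1, pandas 2.3.3 and matplotlib 3.10.9.

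The members, role groups and lists were chosen with earlier results of these data known. The text gives counts for every member, and from each other list up to 3 genes with the largest absolute log2 ratio at 100 or more summed counts. The remaining list genes named, the caveola genes, the genes near Cav1 and the pairs of members compared were chosen after their values were seen. Alternatives were DESeq2 1.42.0 size factors, total-count scaling, totals outside mitochondrial genes, a prior count of 5, no count minimum, a minimum of 100, and log2(FPKM + 0.1).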

Additional observations from a re-analysis of the deposited data

How the results depend on the processing

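No replicate could be left out and no paired analysis was possible because each genotype has 1 library. Cav1 was the member past 2-fold lower under every scaling tried, and no member with an interval excluding 0 reversed. The prior count does not enter that call, and Cav1, with 697 summed counts, passes every count minimum, so these settings could not alter it. The FPKM follow from counts and totals and repeat the total-count scaling. Across all the alternatives the median of the members lay between 0.047 and 0.095, with 6 to 10 intervals above 0 and 4 or 5 below. DESeq2 size factors took Cdh5 (0.12) out of those above 0. Total-count scaling added Pecam1 (0.19), Eng (0.21) and Vwf (0.31) above 0 and took out Sox17 (−0.38), and totals outside mitochondrial genes did the same. The surface group then had 5 intervals above 0, against 1 with DESeq2 size factors and 2 with TMM. Total-count scaling shifted the median of all tested genes by 0.038. Of the summaries of role groups and other lists, 666 were labelled as near their values and 22 were not. A median was so labelled if it shifted by less than the standard deviation of its list. A count was so labelled if equal or within a set factor. Many counts were 0 in both settings or do not use the altered setting, so the 666 does not measure stability. Most of the 22 are counts of intervals in small lists. With total-count scaling the mural list had 5 intervals above 0 and 1 below, the transcription factors had 1 below, and the list of VEGF, angiopoietin and Notch signalling and hypoxia had 0 below. The ratio of Fabp4 to the surface genes included 0 when Pecam1, Cdh5 and Tie1 were the comparison (0.11). Depth limits the statements on Vegfc, Apln and Angpt2, whose summed counts were 44, 45 and 83.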
